A study of Drosophila melanogaster with 4 samples.

Results

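At the distal end of the X chromosome, the pigmentation gene y (yellow) lies next to the achaete-scute complex, and Su(Hw) binding around these genes was read from lists of ChIP-seq enriched regions. Regions were taken when their midpoint fell between 240000 and 330000 on X in FlyBase release 5 and they were not marked as depleted. This rule used position alone, but the stretch was placed to hold these genes and a known Su(Hw) binding site between y and ac. At least 1 region was therefore to be looked for in it. It held 1 region of 5892 in the combined list, and likewise 1 of 4999 for replicate 1 and 1 of 4662 for replicate 2. The 3 regions overlapped one another, so the lists describe a single site. The study immunoprecipitated Su(Hw) with 1 antibody (SU(HW)-HB) from whole embryos aged 14 to 16 h of the wild-type strain Oregon-R, for which the labels name no treatment, and had 2 ChIP samples and 2 input DNA samples. A list of regions was made for each ChIP sample, and the labels give each ChIP sample an input of the same number. The remaining list covers both ChIP samples. Nothing in the labels says that separate collections of embryos were used for the ChIP samples, so their spread may be technical. Whole embryos mix many cell types, so a region does not say in which cells Su(Hw) was bound.

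Su(Hw) is a zinc-finger DNA-binding protein that, with the partners Mod(mdg4) and CP190, forms insulators. When placed between an enhancer and a promoter, such an insulator can keep the enhancer from acting. The protein is best known from the gypsy retrotransposon, whose insertion upstream of y in the y2 allele cuts the gene off from its body and wing enhancers. The wild-type X also carries an insulator bound by Su(Hw), called 1A-2, between y and ac, which was described as separating these differently regulated genes. The gene y encodes a secreted protein needed for black cuticle pigment. The genes ac (achaete), sc (scute), l(1)sc (lethal of scute) and ase (asense) encode basic helix-loop-helix transcription factors. The first pair is best known for setting where bristles form, l(1)sc for forming embryonic neuroblasts, and ase for its expression in neural precursors. Their enhancers are spread over the long DNA between them.

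The gene order was read from RefSeq's annotation of Release 6 of the genome, in which all 5 genes were found by symbol, and no position was taken from it. The order from the telomere was y, ac, sc, l(1)sc and ase. Between y and ac lay 1 gene, lncRNA:yar, a long noncoding RNA. Between ac and sc lay 3 genes for long noncoding RNAs, lncRNA:CR44751, lncRNA:CR44752 and lncRNA:CR44753. None lay between sc and l(1)sc, and 1, the protein-coding Pgcl, lay between l(1)sc and ase. The annotated span of CG32816 covers the whole series of genes. In release 5, the build of the lists, y lies at about 250000 to 255000 and ac at about 264000. These positions are known only to about 1 kb, and they keep the spacing of y and ac seen in Release 6 to within 1 kb. The approximate positions at hand for sc, l(1)sc and ase did not keep their Release 6 spacing from ac and were not used. The distance from y to ase in Release 6 is longer than the stretch searched. If that spacing holds in release 5, ase lies beyond the centromere-side limit of the stretch.

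The single Su(Hw) region lay at the end of y that faces ac. In the combined list it spanned 254274 to 257392 on X, a width of 3119 bp. It began 727 bp before the approximate end of y at 255000 and ran 2392 bp past it, so that 76.7% of its length lay beyond y on the side of ac. Its far edge was 6.61 kb short of the approximate position of ac. The part inside y is smaller than the uncertainty of the gene's position, whereas the part beyond y is larger than that uncertainty. The region therefore reached into the interval between y and ac, which also holds the 1A-2 insulator and lncRNA:yar. It is called the region between y and ac below, although it may overlap the end of y. Its midpoint, at 255833, was nearer to the approximate end of y than the uncertainty of that end, so the share of the region that lies beyond y is itself approximate. The lists have no positions within a region finer than its edges, and the DNA sequence of release 5 was not used here, so the sites bound within these bases were not resolved.

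**Figure D1:**
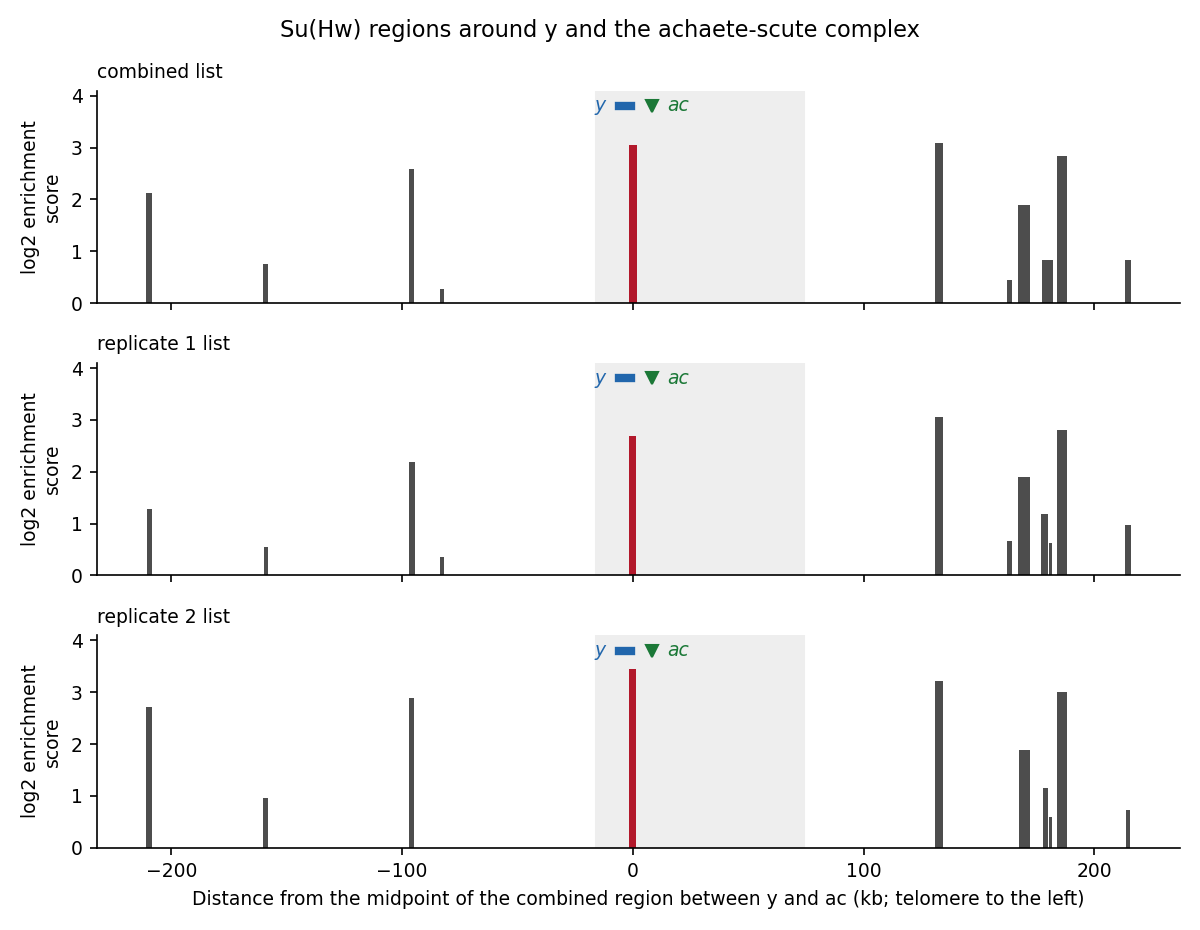
Su(Hw) regions within 220 kb of the region between y and ac in the 3 lists. Bars span each region at its width, with its log2 enrichment score as height, against distance in kb from the midpoint of the combined region. The region is red, other regions are grey, the searched stretch is shaded, and the blue line and green triangle mark the approximate places of y and ac. The red bar stands alone in the shaded stretch in each list.

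Both replicates listed the region with nearly the same edges. Replicate 1 gave 254324 to 257384 (3061 bp) and replicate 2 gave 254321 to 257251 (2931 bp). The starts differed by 3 bp and the ends by 133 bp, against median differences of 49 bp for starts and 50 bp for ends over the 3963 pairs that had 1 partner each and midpoints at most 250 bp apart. The end difference lay within the range of those pairs, 95% of which differed by at most 282 bp there. The replicates shared 2928 bp, or 95.7% of the replicate 1 region and 99.9% of the replicate 2 region. Of all combined regions, 73.5% overlapped a region of both replicates by at least 1 bp, as did 72.1% of those on X, and the single region of y and ac was among them. With 1 region, this count cannot be set apart from that background.

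The region was strongly enriched in each list. The score is the authors' enrichment value, and its log2 scale was inferred from the values. None of the sources used here gives its zero point, so a score is not a fold over input and is ranked only within its list. Replicate 1 scored the region at 2.68, replicate 2 at 3.44 and the combined list at 3.04. The median score over the regions of X was 1.22 for replicate 1, 1.45 for replicate 2 and 0.94 for the combined list. On X, 49 of 1234 combined regions (3.97%), 92 of 1020 replicate 1 regions (9.02%) and 34 of 955 replicate 2 regions (3.56%) scored higher. Over the whole combined, replicate 1 and replicate 2 lists, the shares scoring higher were 4.02%, 9.36% and 3.56%. The strongest regions of X reached 4.08, 4.27 and 4.25 in the same order, so this region was not the strongest of its chromosome in any list. It was also wider than most, with 188 wider regions on X among the combined ones (15.2%), 133 in replicate 1 (13.0%) and 148 in replicate 2 (15.5%), against median widths on X of 2225, 2253 and 2272 bp.

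The score was higher in replicate 2 than in replicate 1 by 0.76 on the log2 scale. Over all 4386 replicate 1 regions with a partner in replicate 2, the median difference was 0.02 with an SD of 0.43, and 54.6% of pairs scored higher in replicate 2. A difference toward replicate 2 of 0.76 or more was seen at 8.21% of these pairs. Among the 532 pairs whose mean score lay within 0.5 of that of the region, 39 (7.33%) differed by as much. The region's difference was toward the upper end but within the range of these pairs of like strength, where the 95th percentile was 0.91. Every pair took the best-scoring partner in replicate 2, which can raise the differences where several regions overlapped. These shares and the percentile were not recomputed for pairs with 1 partner each. The 3 paired regions between y and the telomere were also higher in replicate 2. The region at 45113 to 47481 scored 1.28 in replicate 1 against 2.73 in replicate 2. At 95812 to 97842 it was 0.55 and 0.95, and at 158865 to 161227 it was 2.18 and 2.89. The nearest replicate 1 region on the telomere side scored 0.36 and had no partner in replicate 2, so it gave no difference. The nearest pairs on the centromere side differed less. The next region had 3.05 in replicate 1 and 3.23 in replicate 2, and the next one listed in both had 1.90 and 1.88. Each list may have been scaled separately and there was no other group, so these differences were described and not tested.

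**Figure D2:**
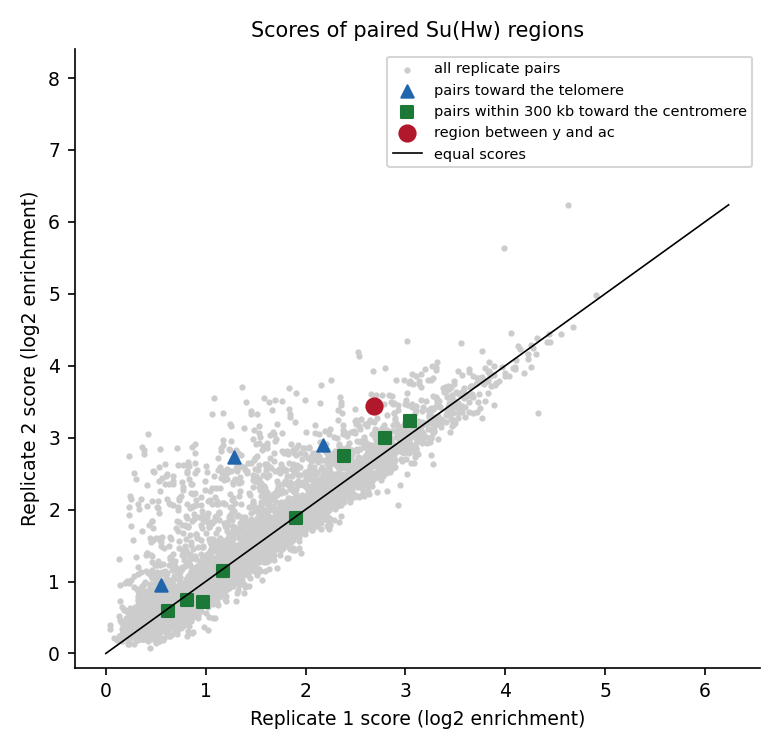
Scores of paired regions in replicate 1 (x axis) and replicate 2 (y axis), as log2 enrichment, with the line of equal scores. Grey points are all 4386 pairs, and colours mark the region between y and ac (red circle), the pairs nearer the telomere (blue triangles) and the pairs within 300 kb toward the centromere (green squares). The red circle (2.68 and 3.44) and the 3 triangles lie above the line.

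Around the rest of the complex, no list held an enriched region for a long distance. From the edge of the region beyond y to the next region toward the centromere there were 129.2 kb in the combined list (257393 to 386637), and 129.3 and 129.5 kb in replicates 1 and 2. This gap starts before ac, and in each list its part beyond ac is longer than the distance from ac through ase in Release 6. If that spacing holds in release 5, ac, sc, l(1)sc, Pgcl and ase all lie in the gap and have no listed Su(Hw) region at them. Of the 5 combined regions and the 1 replicate 1 region that the authors marked as depleted, 0 lay in the stretch. A gap in a list says that no region passed the authors' calling there. It does not show that Su(Hw) was absent, since neither the depth nor the caller's threshold is given in the sources used here.

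On the telomere side the gap measured 80.3 kb in the combined and the replicate 1 list and 93.2 kb in replicate 2. The nearest regions outside the stretch were far from its limits, so the count of 1 would stay the same with somewhat wider limits. It does depend on including y, since a stretch from ac to the same upper limit would hold no region. Toward the telomere the neighbour was a weak region at 172334 to 173986, with a score of 0.27 in the combined list and 0.36 in replicate 1. Replicate 2 did not list it, and its own neighbour was the stronger region at 158684 to 161119 with a score of 2.89. Toward the centromere the neighbour was at 386638 to 390336, which scored 3.08, 3.05 and 3.23 in the combined, replicate 1 and replicate 2 lists. Further in that direction regions became frequent, with 5 more combined regions from 418002 to 471450 and scores from 0.45 to 2.83. Altogether 213 kb of X, from 173987 to 386637, held the y region alone in the combined list, as did 213 kb in replicate 1 and 226 kb in replicate 2.

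**Figure D3:**
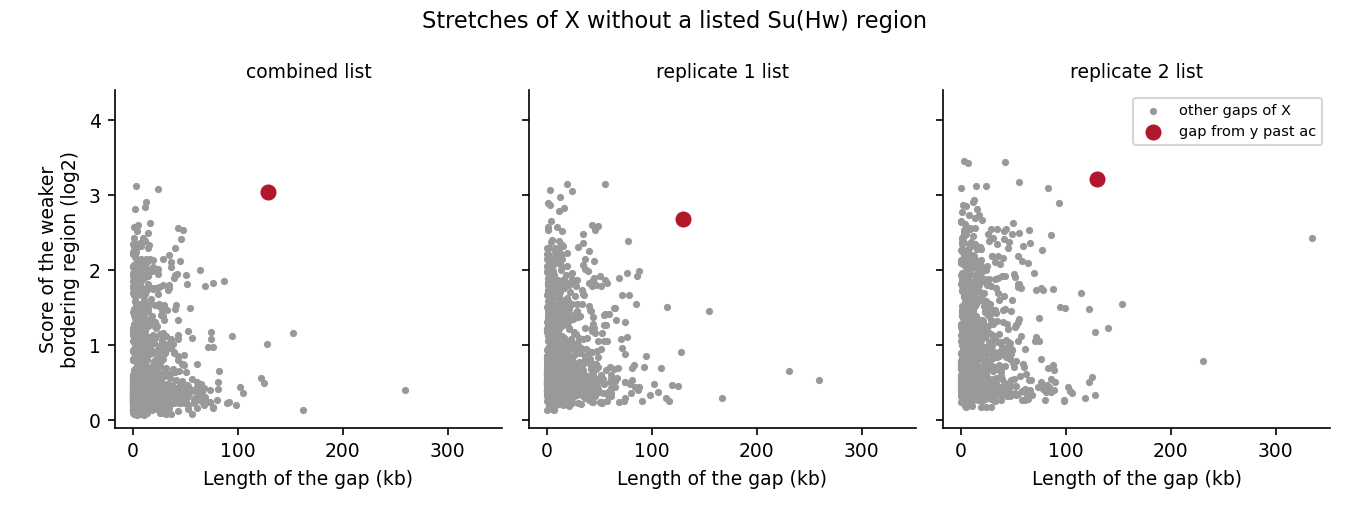
Every gap between consecutive regions of X by its length in kb (x axis) and the log2 enrichment score of the weaker of its bordering regions (y axis), in the 3 lists. The red point is the gap that starts between y and ac. At 129 kb it is among the 5 longest of each list. Its weaker border scores highest among the 9, 14 and 15 gaps of at least 100 kb in the combined, replicate 1 and replicate 2 lists. Among gaps of at least 50 kb, 1 in replicate 1 has a higher weaker border.

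The gap beyond y was long for X, where consecutive combined regions were a median of 9.31 kb apart. Only 3 of 1233 gaps of X were longer in the combined list (0.243%), 4 of 1019 were longer in replicate 1 (0.393%) and 4 of 954 in replicate 2 (0.419%). On the 5 large arms together the shares were higher. There, 25 of 5781 combined gaps (0.432%), 37 of 4928 in replicate 1 (0.751%) and 44 of 4582 in replicate 2 (0.960%) were longer than the gap beyond y. The gap beyond y was also bordered by strong regions on both sides, which was uncommon for gaps of any length. Over all gaps of X the weaker border had a median score of 0.43, 0.69 and 0.88 in the combined, replicate 1 and replicate 2 lists. In the same order, 2, 9 and 3 gaps had a higher weaker border than the gap beyond y. The weaker border scored 3.04 in the combined list, against a median of 0.41 over the 75 gaps of X of at least 50 kb, and no other of these had a weaker border that scored higher. In replicate 1 the value was 2.68 against a median of 0.63 over 88 such gaps, of which 1 had a higher weaker border. In replicate 2 it was 3.23 against 0.80 over 95 gaps, with none higher. On the autosomal arms 2L, 2R, 3L and 3R, among gaps of at least 50 kb, 0 of 372 combined gaps, 3 of 446 in replicate 1 and 1 of 470 in replicate 2 had a higher weaker border. These measures were chosen after the values were seen and are descriptions of the lists, with no test.

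The region was likewise one of few strong and isolated ones. Regions of X with at least 50 kb free on both sides numbered 6 of 1232 combined regions, 9 of 1018 in replicate 1 and 13 of 953 in replicate 2 (the outermost regions of X have no neighbour on 1 side and were left out). The region between y and ac had the highest score among them in each list. Their median scores were 0.77, 1.42 and 1.74. On the 4 autosomal arms, 46 of 4544 combined regions, 80 of 3905 in replicate 1 and 79 of 3624 in replicate 2 were as far apart, and 3, 9 and 3 of these scored higher than the region at y did in the same list.

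**Figure D4:**
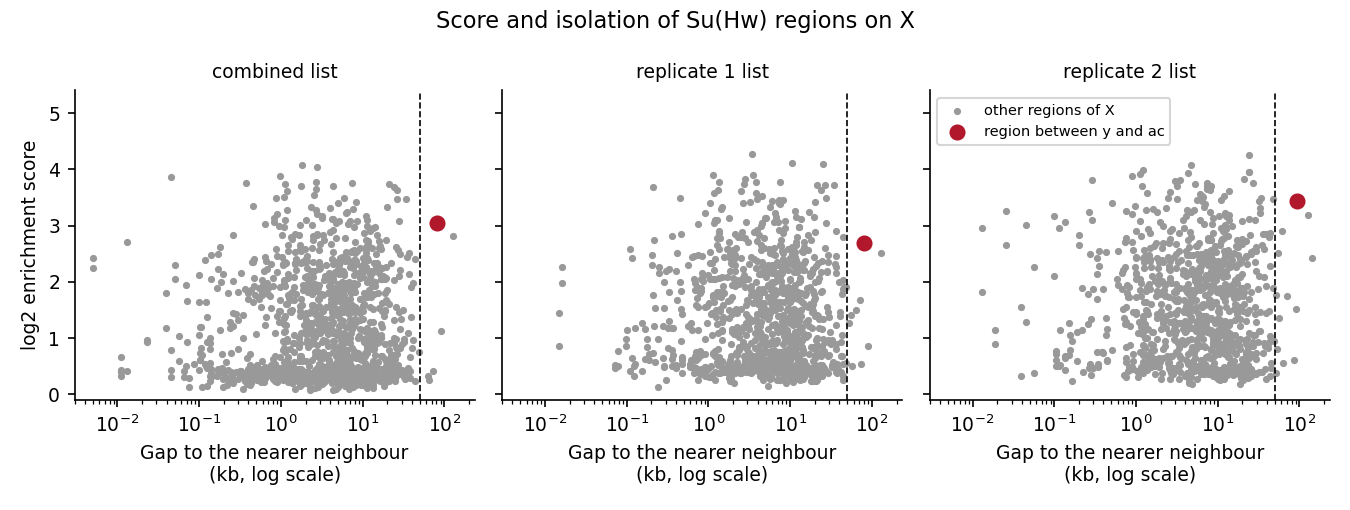
Regions of X by the gap to their nearer neighbour in kb (x axis, log scale) and their log2 enrichment score (y axis) in the 3 lists. The dashed line marks 50 kb. The red point is the region between y and ac, which is the highest of the 6, 9 and 13 points right of the line in the combined, replicate 1 and replicate 2 lists.

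With 1 region in 90 kb, the stretch held 11.1 regions per Mb (95% exact Poisson interval 0.281 to 61.9) in each list. The rest of X held 55.2 per Mb in the combined list (52.2 to 58.4), 45.6 in replicate 1 and 42.7 in replicate 2. These densities lie inside the interval of the stretch, so a lower density of Su(Hw) regions in the stretch was not detectable from 1 region. When X was cut into 248 consecutive windows of 90 kb, with the stretch as 1 of them, windows held a median of 5 combined regions and from 0 to 13. A count of 1 or 0 was found in 17 windows (6.85%) of the combined list, 29 (11.7%) of replicate 1 and 35 (14.1%) of replicate 2. The intervals cover counting of regions only. The stretch was placed with the 1A-2 insulator known to lie in it. Its count is therefore not that of a stretch picked without regard to Su(Hw), and these comparisons are descriptions.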

How the data were processed

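ChIP-seq of Su(Hw) in Oregon-R embryos gave 3 lists of regions, 1 for each of 2 ChIP samples and 1 combined. The submitters' processing notes name Bowtie 0.12.7 as a tool. What called the regions, at which threshold and depth, and how replicates were combined was not given in the sources used here, although such choices decide whether a weak region is listed. Positions follow FlyBase release 5, per the file headers. The deposited score is the authors' log2 enrichment of a region. The log2 scale was read from the values, and each list may have its own scaling.

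Regions were compared by overlap of at least 1 bp. A replicate 1 region was paired with its best-scoring partner in replicate 2. A gap is the number of bases between consecutive regions. The region, its nearest neighbours and the 5 genes were named by rule, while other features were picked with their values in view. The members and measures were chosen with earlier results of these data known. No test was run, because the lists come from 1 group of 2 samples. Overlap and gap steps, and pairing with 1 partner each, were tested on simulated lists of well-spaced regions. The choice of a best-scoring partner among several was not tested there. Python 3.11.15, numpy 2.4.6, pandas 2.3.3, scipy 1.17.1 and matplotlib 3.10.9 were used. Sequences were not used here. Alternatives are given in the closing section.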

Additional observations from a re-analysis of the deposited data

How the results depend on the processing

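The count of 1 region in the searched stretch was the same when any overlap with the stretch was taken and in the better-scoring 50% of the combined list. Its presence in both replicates held with reciprocal overlap of 50%, with midpoints within 250 bp and in the better-scoring 50% of each list. The region scored above the median of every list, so the settings with the better-scoring 50% had to keep it. Its score was the same with any overlap, since the same region was taken. Its difference between replicates was 0.76 also among pairs with 1 partner each, since its own pair is one of these. Centring on the median of all pairs only subtracts a constant and gave 0.73. Neither setting is a separate sign of stability. With 1 replicate left out, the count stayed at 1 and the score ranged from 2.68 to 3.44. These are the values of the replicate lists themselves, so they are no separate sign of stability, and presence in both replicates could not be checked that way. Another 6 alternatives, chosen after seeing the data, concerned the gaps. The gap toward the centromere ranged from 129.3 to 129.5 kb with 1 replicate left out, and that toward the telomere from 80.3 to 93.2 kb. In the better-scoring 50% of the combined list they were 129 and 93.1 kb. Both borders of the gap toward the centromere scored above the median of that list, so its length could not change there. No paired analysis was possible because the labels number only ChIP and input samples alike, no list was made for an input, and the result comes from no test. The planned search of promoters for the core of the Su(Hw) motif was not run, because no promoter sequence was used here. A region too weak for the authors' threshold could lie in the gap, and the depth that would limit this is unknown.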
